A study of Mus musculus with 16 samples.

Results

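Among the 831 genes of a deposited RNA sequencing table from mouse skeletal muscle, 39 are long non-coding RNAs or pseudogenes. They were chosen by annotation and not by their values: a gene was taken when its Ensembl identifier has the GENCODE M21 biotype lincRNA, antisense, processed transcript or bidirectional promoter lncRNA, or any pseudogene biotype, leaving out chromosome Y. The 26 long non-coding RNAs comprise 16 lincRNAs, 7 antisense RNAs, 2 processed transcripts and 1 RNA of a bidirectional promoter. The 13 pseudogenes comprise 8 processed, 2 unprocessed, 1 transcribed processed, 1 transcribed unprocessed and 1 polymorphic pseudogene. RefSeq lists 34 of the 39 by the same symbol or a synonym. The biotype disagrees with RefSeq in 1 case: Clec7a, the polymorphic pseudogene, is protein coding there.

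The libraries came from whole tibialis anterior, a fast muscle of the lower leg, at postnatal day 30. There are 16, with 4 in each group. Control mice are labelled wild type, miR-133b-/- mice lack the microRNA miR-133b, mdx mice carry the mutation of the dystrophin gene Dmd and are labelled mdx-/-, and mdx/miR-133b-/- mice carry both changes. Nothing in the sources used here gives the strain, the sex, any pooling, the extent of the deleted miR-133b allele or whether each library is its own animal, so p-values measure the spread between samples, which may be technical. Neither Dmd nor Mir133b is among the 831 genes, so the genotypes could not be checked on their targets. The title of each sample and the column codes of the table name the same library, whereas in 14 of the 16 the description carries a code that belongs to a different sample. Groups were taken from the titles.

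The values are read counts per gene that the authors scaled with 1 factor per library (0.459 to 1), called scaled reads here. Reads in the 831 genes numbered 2356990 to 6000033 per library, and the full depth is unknown. The 39 genes held 0.494% to 0.853% of the scaled reads of all listed genes. The table is a selection: in each listed gene the mdx/miR-133b-/- mean is at least 1.72-fold above or below the miR-133b-/- mean. Among the 39 this ratio ran from 1.79-fold for Jpx and 1.80-fold for 1810014B01Rik to 18.4-fold for Clec7a, and it is not tested. Each other comparison except mdx against Control uses a group of that selection, and the interaction test described below uses both. The p-values of these comparisons are therefore not free of the selection. miR-133b-/- 1 lay farthest from the other 3 libraries of its group, by a median of 0.57 on the log2 scale over the 39 genes, against 0.20 to 0.43 in the other 15 libraries. It was the highest or the lowest of its group in 25 of the 39 genes, the same number as mdx 3. The median SD over the 39 genes on the log2 scale was 0.57 in miR-133b-/- against 0.30 in Control and 0.34 in both groups with the mdx mutation.

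Long non-coding RNAs are transcribed and often spliced like messenger RNAs but are not known to encode proteins. Some act on nearby genes, some bind other RNAs, and some serve as the precursor from which microRNAs are cut. Processed pseudogenes are copies of messenger RNAs that were reverse transcribed back into the genome, so they lack introns and resemble the parent message closely. Unprocessed pseudogenes as a rule arose by duplication of genomic DNA. The 2 genes labelled unprocessed here are Gm28439, which matches a mitochondrial gene, and Vdac3-ps1, which matches a Vdac3 transcript over all 853 bases. In skeletal muscle, miR-133 and miR-206 are microRNAs of the muscle lineage with roles in myoblast proliferation and differentiation. Dystrophin links the cytoskeleton of the fibre to the surrounding matrix, and mdx muscle without it goes through rounds of fibre loss, inflammation and regeneration.

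Of the 39 genes, 4 contain, on their own strand, microRNA genes with mature sequences in RefSeq. The mature sequences below are from RefSeq (GRCm38), written 5′ to 3′ with the seed (bases 2 to 8), the part that pairs with targets, in capitals. They are shown because they name what each long RNA can be processed into. Gm28653, a lincRNA at chromosome 1, 20669882 to 20684298, plus strand and known as linc-MD1, spans Mir206 and Mir133b, the microRNA removed in this study. All 119 bases of the Mir133b hairpin and 60 of the 73 bases of the Mir206 hairpin are exonic in it. Dnm3os, at chromosome 1, 162217623 to 162225550, plus strand, holds the whole of the 110 bases of both the Mir199a-2 and Mir214 hairpins in its exon. In 3110039I08Rik, at chromosome 9, 41327077 to 41716994, plus strand and named Mir100hg in RefSeq, the hairpins of Mir100, Mirlet7a-2 and Mir125b-1 lie in introns, with 0 exonic bases. 2900076A07Rik, at chromosome 7, 81523550 to 81531498, plus strand, holds all 73 bases of Mir1839 in an exon. The 6 mature arms below do not share a seed with each other.
miR-133b-3p (Gm28653): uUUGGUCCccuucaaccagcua
miR-206-3p (Gm28653): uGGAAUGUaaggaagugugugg
miR-199a-3p (Dnm3os): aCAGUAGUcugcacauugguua
miR-214-3p (Dnm3os): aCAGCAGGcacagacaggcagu
miR-125b-5p (3110039I08Rik): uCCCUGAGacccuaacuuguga
miR-1839-5p (2900076A07Rik): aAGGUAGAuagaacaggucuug

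Of the 4 host RNAs of microRNAs 3 passed as higher in mdx than in Control, beside 44.5% of all 831 listed genes, and 1 of the 3 calls (2900076A07Rik) was lost under another scaling. Gm28653 changed most among them. Its Control libraries 1 to 4, in that order as in all lists that follow, held 20.01, 72.7, 67.3 and 39.6 scaled reads, and the mdx libraries held 289.8, 526, 485 and 241. It stood at 43, 35.7, 6.62 and 18.5 in miR-133b-/- and at 502, 294, 439 and 541 in the mdx/miR-133b-/- ones. Every library with the mdx mutation was above every library without it. Part of this separation, that of mdx/miR-133b-/- from miR-133b-/-, is the difference by which the table was selected. The same holds wherever libraries with and without the mdx mutation are set against each other below. The rise from Control to mdx was 8.05-fold (log2 fold change 3.01, SE 0.47, limma adjusted p = 6.6e-05). The reads of this gene count the long RNA that encloses Mir133b, not the microRNA itself, and how much of it the miR-133b-/- allele removes is unknown here.

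Dnm3os lies within Dnm3 on the opposite strand, with 0 shared exonic bases, and is the known precursor of miR-199a and miR-214. Its scaled reads were 82.2, 106, 115 and 119 in the Control libraries, 99, 256, 77.2 and 129 in miR-133b-/-, 246, 302, 241 and 318 in mdx and 621, 559, 489 and 411 in the mdx/miR-133b-/- ones. All 4 mdx libraries exceeded all 4 Control libraries, and all 4 mdx/miR-133b-/- libraries exceeded all 4 of mdx. Dnm3os rose 2.62-fold in mdx (log2 fold change 1.39, SE 0.28, limma adjusted p = 0.000466). 2900076A07Rik rose as well, from 91.974 ± 26.8 to 158 ± 37.1 scaled reads (SD, n = 4; log2 fold change 0.79, SE 0.25, limma adjusted p = 0.00922); with relative log expression factors, estimated from the 831 genes to replace the authors' factors, it stood at 0.43 and no longer passed. 3110039I08Rik did not pass, at 573 ± 76.7 in Control and 689 ± 71.6 in mdx (log2 fold change 0.27, SE 0.23).

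**Figure D1:**
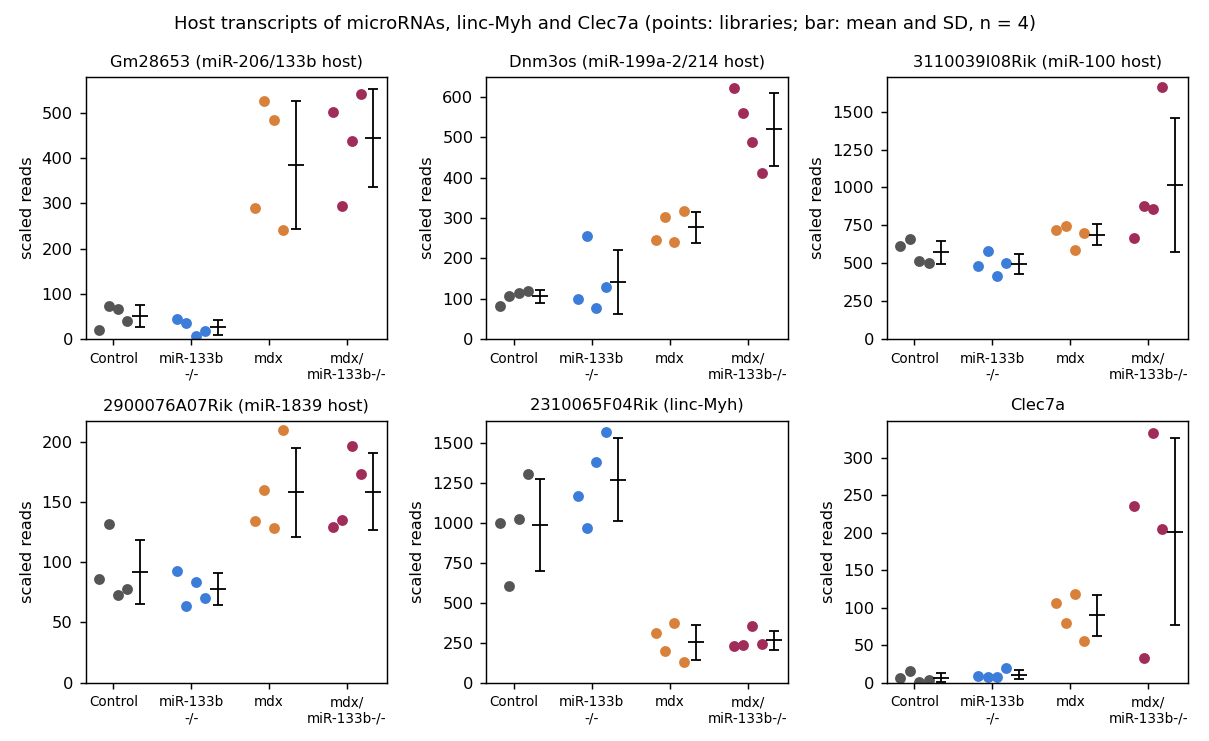
Scaled reads of the 4 host RNAs of microRNAs, of 2310065F04Rik (linc-Myh) and of Clec7a in each of the 16 libraries (points; horizontal axis, group; vertical axis, scaled reads from 0), with the mean and SD of each group of 4 beside them. Gm28653 and Clec7a are high, and 2310065F04Rik low, in all libraries with the mdx mutation, while Dnm3os goes from 105 ± 16.4 in Control to 277 ± 38.9 in mdx and 520.0 ± 90.5 in mdx/miR-133b-/-.

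Over the 39 genes, mdx differed from Control in 27 at an adjusted p under 0.05, with 13 higher and 14 lower. The table as a whole had 66.2% of its genes called in this comparison, 44.5% higher and 21.7% lower, so the 69.2% called here is close to that of all listed genes. The median log2 fold change was -0.00 over the 39 genes and 0.44 over all 831. Of the 26 long non-coding RNAs 12 rose and 7 fell, with a median of 0.50, and of the 13 pseudogenes 1 rose and 7 fell, with a median of -0.62. The difference between the classes was not tested. With relative log expression factors the median of all 831 genes became 0.09, the calls became 10 higher and 17 lower (all listed genes: 260 higher and 270 lower, against 370 and 180), and 24 of the 27 genes were shared. Under that scaling the long non-coding RNAs had 9 higher and 8 lower and the pseudogenes 1 higher and 9 lower. Hectd2os, Gm16062, Jpx and 3110039I08Rik changed sign, none of them called.

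**Figure D2:**
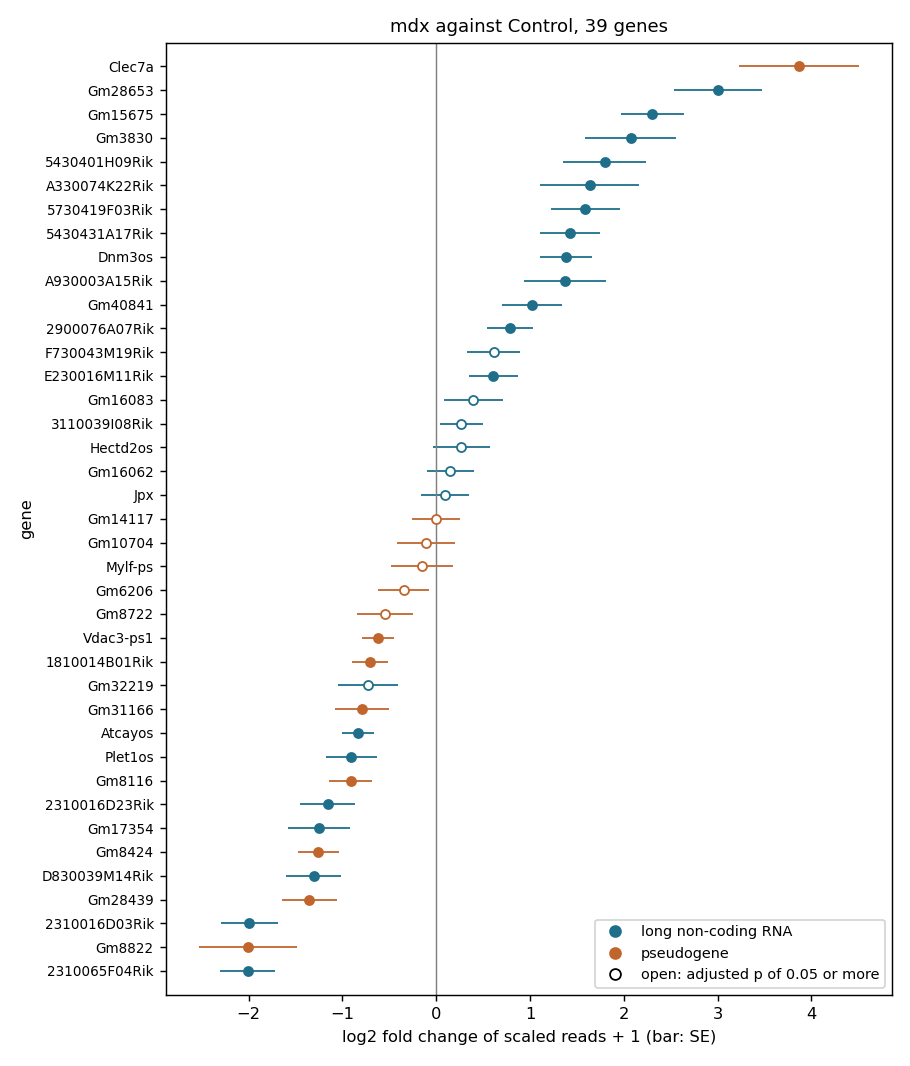
log2 fold change of scaled reads + 1, mdx against Control, for the 39 genes (points; bars, SE; filled points passed the test; colour, class). The long non-coding RNAs spread on both sides of 0, from -2.01 to 3.01, and of the 13 pseudogenes only Clec7a lies above 0.

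2310065F04Rik, a lincRNA that RefSeq also names linc-Myh, is known as an RNA of the fast myosin heavy chain locus that favours the fast fibre programme. It lies at chromosome 11, 67112461 to 67120080, minus strand, 10170 bases from Myh3, the embryonic myosin gene, and 117949 bases from Myh4, the myosin gene of the fastest fibres. Scaled reads were 999.7, 605, 1023 and 1305 in the Control libraries, 1169, 965, 1377 and 1564 in miR-133b-/-, 309.6, 201, 376 and 129.7 in mdx and 232, 234, 354 and 242 in the mdx/miR-133b-/- ones. The highest value with the mdx mutation lay below the lowest without it. The fall in mdx was 4.02-fold (log2 fold change -2.01, SE 0.29, limma adjusted p = 4.0e-05), and mdx/miR-133b-/- did not differ detectably from mdx (log2 fold change 0.15, SE 0.29). Of the listed myosin genes on either side, Myh3 rose 46.5-fold (log2 fold change 5.54, SE 0.62) and Myh4 fell 1.51-fold (log2 fold change -0.60, SE 0.26). Each of the other myosin genes of the cluster, Myh2, Myh1, Myh8 and Myh13, was not analysed here.

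The other lincRNAs that rose in mdx were led by Gm15675, at chromosome 1, 130429781 to 130437191, minus strand, 1836 bases from Cd55, the gene of a membrane inhibitor of complement. It had 286, 179, 130.2 and 100.01 scaled reads in Control and 592, 1169, 613 and 963 in mdx, with no overlap, a rise of 4.95-fold (log2 fold change 2.31, SE 0.34, limma adjusted p = 4.0e-05). It stood at 308, 201, 221 and 99.02 in miR-133b-/- and 556, 508, 573 and 378 in the mdx/miR-133b-/- ones. Gm3830, 307 bases from Cbfb, went from 28.6 ± 13.9 to 114 ± 28.2 scaled reads (log2 fold change 2.07, SE 0.49). 5430401H09Rik went from 40.4 ± 4.99 to 144 ± 27.3 (log2 fold change 1.80, SE 0.44) and A330074K22Rik from 32.3 ± 12.955 to 101 ± 40.9 (log2 fold change 1.64, SE 0.53). In each of these 4 genes all mdx libraries lay above all Control libraries. Of all 831 listed genes 44.5% passed as higher in mdx, and the share of them without overlap was not counted.

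Rises between 1.37 and 1.59 on the log2 scale were found in 3 more lincRNAs. 5730419F03Rik rose from 30.7 ± 3.097 to 102 ± 49.4 (log2 fold change 1.59, SE 0.37), 5430431A17Rik from 336 ± 51.6 to 953 ± 395 (log2 fold change 1.43, SE 0.32) and A930003A15Rik from 34.6 ± 11.4 to 90.1 ± 27.9 (log2 fold change 1.37, SE 0.44). Gm40841 rose from 53.9 ± 7.83 to 112 ± 30.1 (log2 fold change 1.02, SE 0.32) but did not pass with relative log expression factors (0.67). E230016M11Rik, a processed transcript that shares 337 exonic bases with Gadd45a on the other strand, rose from 93.2 ± 21.5 to 141 ± 24.2 (log2 fold change 0.61, SE 0.26, limma adjusted p = 0.0465). Gadd45a encodes a stress-induced protein of growth arrest. That call was lost with relative log expression factors (0.25), with a minimum mean of 100 scaled reads (adjusted p = 0.0593), and without Control 1 (0.42), Control 4 (0.64), mdx 1 (0.53), mdx 2 (0.56) or mdx 4 (0.60).

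Of the long non-coding RNAs that fell in mdx, 2310016D03Rik (lincRNA, chromosome 12, 30410559 to 30467358, minus strand) came closest to linc-Myh. It had 309, 222, 522 and 421 scaled reads in the Control libraries, 312, 356, 386 and 219 in miR-133b-/-, 117, 53.8, 85.5 and 107 in mdx and 93.99, 193, 141 and 98.8 in the mdx/miR-133b-/- ones. No library with the mdx mutation reached the lowest library without it, and the fall in mdx was 3.99-fold (log2 fold change -1.99, SE 0.30, limma adjusted p = 6.0e-05). The lincRNA 2310016D23Rik fell 2.23-fold (log2 fold change -1.16, SE 0.29), to 68.4 ± 12.7 scaled reads. Gm17354, a lincRNA that shares 281 exonic bases with the protein coding gene Cc2d1b on the other strand, fell 2.38-fold (log2 fold change -1.25, SE 0.33), to 34.9 ± 5.81. With each library's trend over GC content and transcript length removed, 2310016D23Rik stood at -0.69 and did not pass.

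Atcayos, antisense to Nmrk2 (a nicotinamide riboside kinase of muscle) and Atcay, was the most abundant of the 26 long non-coding RNAs by scaled reads, which are not per length. It had 2919.9, 3381, 3668 and 3844 scaled reads in the Control libraries, 3284, 3714, 2778 and 3818 in miR-133b-/-, 2053, 2166, 1835 and 1675 in mdx and 1579, 2268, 1633 and 1653 in mdx/miR-133b-/-, with no overlap between mdx and Control. The fall was 1.79-fold (log2 fold change -0.84, SE 0.17, limma adjusted p = 0.000498). D830039M14Rik, antisense to the leucine-rich repeat gene Lrrc20 with 89 shared exonic bases, had 137, 79.6, 111 and 115 scaled reads in the Control libraries, 204, 155, 218 and 111 in miR-133b-/-, 47.3, 39.1, 59.6 and 31.99 in mdx and 41.7, 70.9, 68.2 and 42.8 in the mdx/miR-133b-/- ones. It fell in mdx (log2 fold change -1.31, SE 0.29, limma adjusted p = 0.00106), and so did Lrrc20 (log2 fold change -0.69, SE 0.20, from 2418 ± 297 to 1495 ± 162 scaled reads). Plet1os, antisense to Plet1, fell from 344 ± 78.8 to 185 ± 51.9 (log2 fold change -0.90, SE 0.28). Whether strand was used in counting is unknown here, so reads of an antisense RNA and its partner cannot be told apart where their exons overlap. The same holds for Gm17354 and for 3 pseudogenes described later, 1810014B01Rik (415 exonic bases shared with Hsp90b1), Gm31166 (690 with Ovol1) and Gm10704 (239 with Ssr2). The limit also applies to Gm15675 (1087 exonic bases shared with Gm15674), 3110039I08Rik (504 with Gm48740) and E230016M11Rik (337 with Gadd45a). Further such cases are 2900076A07Rik (288 with Gm37829), F730043M19Rik (279 with Gm16267) and A930003A15Rik (160 with Gm49598).

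The long non-coding RNAs that did not pass in mdx were 3110039I08Rik, Gm16062, Gm16083, Hectd2os, Gm32219, Jpx and F730043M19Rik. F730043M19Rik, which shares a bidirectional promoter with Atxn7l1, 96 bases away, had no overlap between groups (67.8 ± 5.14 and 105 ± 15.9, adjusted p = 0.0623). Gm32219 stood at -0.73 (adjusted p = 0.0513) and passed with relative log expression factors. Jpx, known as an activator of Xist in X inactivation, stood at 0.09 (SE 0.25).

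Clec7a is the receptor dectin-1, which binds fungal beta-glucans on macrophages and dendritic cells. It had 5.72, 15.2, 1.46 and 3.73 scaled reads in the Control libraries, 9.0, 7.85, 7.36 and 19.4 in miR-133b-/-, 106, 78.9, 118 and 56.1 in mdx and 235, 32.5, 332 and 205 in the mdx/miR-133b-/- ones. All libraries with the mdx mutation lay above all without it, and mdx/miR-133b-/- 2 lay far below the other 3 of its group. The rise in mdx was 14.6-fold on the scale of scaled reads + 1 (log2 fold change 3.87, SE 0.64, limma adjusted p = 0.000106). The lowest Control values rest on few reads, and the fold depends on the added constant: the log2 fold change was 2.61 with 10 added and 4.02 with 0.5 added.

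Marker genes of muscle fibres and of other cell types were read beside these changes. The tissue label was checked on 10 myofibre genes, of which 4 are listed (Ckm, Myh4, Actn3 and Pvalb) and were high in every library. Their summed scaled reads were 592292 to 730109.7 in Control, 314869 to 730433 in miR-133b-/-, 375355 to 552424 in mdx and 256312 to 320334 in mdx/miR-133b-/-, so the mdx libraries lay below all of Control and the mdx/miR-133b-/- libraries below all of mdx. Of 12 macrophage and monocyte genes 10 are listed, and their summed scaled reads were 1427 to 2057 in Control, 932 to 2584 in miR-133b-/-, 6013 to 9151 in mdx and 3689 to 11747 in mdx/miR-133b-/-. In the same order of groups, 7 of 9 regenerating fibre genes summed to 1215 to 3635, 788 to 3140, 8558 to 11794 and 7306 to 14935, and 5 of 7 fibroblast genes to 11723 to 21604, 8835 to 20326, 37234 to 39597 and 26252 to 49738. Endothelial cells had 1 of 5 markers listed (Flt1, 1687 to 2039 in Control and 856 to 1301 in mdx) and lymphocytes 1 of 5 (Ighm, 184 to 1230 in Control and 102 to 312 in mdx), and of the Schwann cell, erythrocyte and adipocyte markers 0 are listed. Markers outside the table were not analysed here. The listed markers passed the selection of the table on the difference between the mdx/miR-133b-/- and miR-133b-/- means. The sums of those groups are therefore not free of that selection. The part of these cell types in the changes of the 39 genes was not tested. In whole muscle, fewer cells of a type and less RNA per cell cannot be told apart.

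Processed pseudogenes are read through their similarity to other genes. Each pseudogene was aligned to all GENCODE M21 transcripts, and a near copy was looked for among protein coding genes, in the same orientation. Of the 13, 10 had one with at least 95% identity over at least 100 bases and at least 30% of the pseudogene. Gm28439 was identical to mt-Nd4, a mitochondrial subunit of complex I, over all 876 bases, and Gm14117 to Atpaf1 over all 843. Gm8116 matched Carnmt1 at 99.8%, Gm6206 matched Cop1 at 99.7%, Vdac3-ps1 matched Vdac3 at 99.5%, Mylf-ps matched Myl1 at 99.3%, Gm8822 matched Actr3 at 98.8% and Gm10704 matched Rtraf at 98.6%. 1810014B01Rik matched 1190007I07Rik at 95.9% over 611 of 1665 bases, and Gm8722 matched Atp5c1 at 95.7% over 626 of 769. Counting genes of any biotype, Gm6206 matched 31 at 95% or more over at least 100 bases. The other pseudogenes with a near copy matched 1 to 3. No such copy was found for Gm8424, Gm31166 or Clec7a, for which copies outside protein coding genes were not assessed. Of the 10 copied genes only mt-Nd4 is listed. It is unknown here how reads that fit both a pseudogene and its parent were assigned, so the values of these 10 pseudogenes are uncertain.

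The similarity is shown for 2 pseudogenes on which results below turn, in 60 bases of the transcript of each (GENCODE M21, GRCm38), with the bases that differ in capitals. Gm8822 differs from Actr3, the ARP3 subunit of the actin-nucleating Arp2/3 complex, at 29 of 2348 aligned positions, and the longest stretch without a difference is 199 bases. Mylf-ps differs from Myl1, the fast skeletal myosin light chain, at 3 of 421, with an identical stretch of 167 bases. The windows run from base 897 to 956 of Gm8822 and 1103 to 1162 of Actr3 (3 differences), and over 60 bases from base 223 of Mylf-ps and base 603 of Myl1 (1 difference).
Gm8822: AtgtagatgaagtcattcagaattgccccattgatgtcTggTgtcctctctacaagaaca
Actr3: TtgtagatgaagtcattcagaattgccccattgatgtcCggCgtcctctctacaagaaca
Mylf-ps: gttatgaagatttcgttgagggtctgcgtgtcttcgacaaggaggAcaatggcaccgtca
Myl1: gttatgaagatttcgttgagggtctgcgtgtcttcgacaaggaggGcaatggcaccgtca

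Of the 12 pseudogenes other than Clec7a, 7 fell in mdx, and the other 5 lay between -0.55 and -0.00 on the log2 scale. Of all 831 listed genes 21.7% passed as lower, and the difference from that share was not tested. With relative log expression factors 9 pseudogenes passed as lower, and the listed genes that did so went from 180 to 270. Gm8822, a processed pseudogene at chromosome X, 81820384 to 81822730, minus strand, 1.13 Mb from Dmd, fell most. Its scaled reads were 138, 145, 166 and 159 in the Control libraries, 15, 179.9, 127 and 207 in miR-133b-/-, 41.2, 31.8, 31.5 and 45.5 in mdx and 326, 401, 529.6 and 529 in the mdx/miR-133b-/- ones. The mdx libraries lay below all Control libraries, the mdx/miR-133b-/- libraries above all 12 others, and miR-133b-/- 1 far below the rest of its group. The fall in mdx was 4.01-fold (log2 fold change -2.004, SE 0.52, limma adjusted p = 0.00309). 3 more of the 5 genes on chromosome X are pseudogenes, 5.19 Mb (Gm8722), 17.96 Mb (Gm6206) and 65.7 Mb (Gm8424) from Dmd, and the other, Jpx, is 18.3 Mb away.

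Gm8424, a processed pseudogene at chromosome X, 150924620 to 150926159, minus strand, had 705, 565, 513 and 590.4 scaled reads in the Control libraries, 408, 513, 579 and 556 in miR-133b-/-, 286, 171, 291 and 258 in mdx and 246, 216, 277 and 156 in the mdx/miR-133b-/- ones. The groups with and without the mdx mutation did not overlap, and the fall in mdx was 2.39-fold (log2 fold change -1.26, SE 0.22, limma adjusted p = 0.000141). Gm8116 fell from 304 ± 34.6 to 160.5 ± 15.8 (log2 fold change -0.91, SE 0.23) and 1810014B01Rik from 212 ± 30.5 to 129 ± 18.3 (log2 fold change -0.71, SE 0.19). Gm28439, the copy of mt-Nd4 on chromosome 1, fell from 161 ± 19.7 to 63.7 ± 17.4 (log2 fold change -1.35, SE 0.30), and mt-Nd4 fell from 102174 ± 12434 to 51721 ± 10124 (log2 fold change -0.99, SE 0.23). Per 1000000 scaled reads of mt-Nd4, Gm28439 had 1228 to 2148 in Control, 1081 to 3480.2 in miR-133b-/-, 899.9 to 1874 in mdx and 1770.2 to 2785 in mdx/miR-133b-/-, ranges that overlap between Control and mdx.

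Vdac3-ps1, the copy of a voltage-dependent anion channel of the outer mitochondrial membrane, had 649, 600.1, 824 and 948 scaled reads in the Control libraries, 998, 999, 870.3 and 835 in miR-133b-/-, 505, 508, 463 and 463 in mdx and 420.4, 462, 369.6 and 416 in the mdx/miR-133b-/- ones. It fell 1.53-fold in mdx (log2 fold change -0.62, SE 0.17, limma adjusted p = 0.00441). Gm31166 had 168, 97.9, 126 and 131 scaled reads in the Control libraries, 106, 75.7, 135 and 139 in miR-133b-/-, 75.3, 80.8, 94.9 and 51.6 in mdx and 61.4, 47.05, 36.96 and 29.6 in the mdx/miR-133b-/- ones. It fell 1.73-fold in mdx (log2 fold change -0.79, SE 0.29, limma adjusted p = 0.0227). With the GC and length trend removed neither passed (Vdac3-ps1 -0.38, Gm31166 -0.57), and Gm31166 did not pass without Control 1 (-0.66) or mdx 4 (-0.62). The 5 that did not pass were Gm14117, Gm10704, Mylf-ps, Gm6206 and Gm8722.

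**Figure D3:**
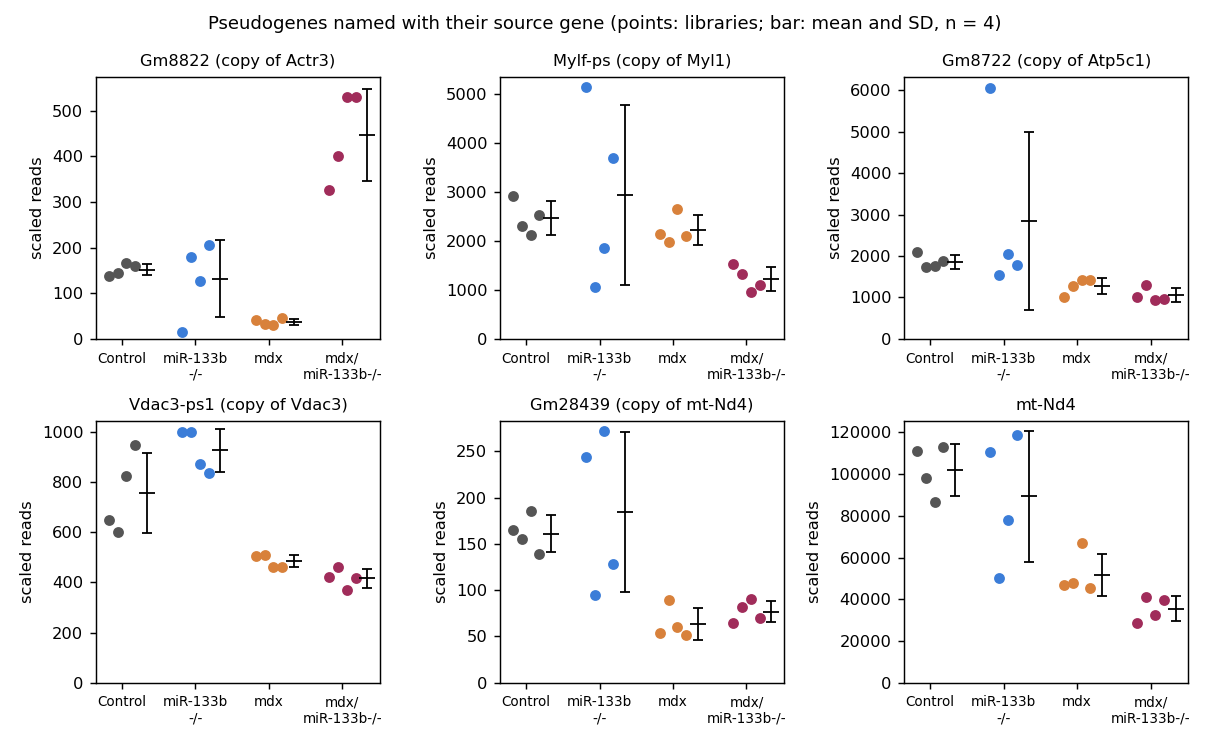
Scaled reads of 5 pseudogenes and of mt-Nd4 in each of the 16 libraries (points; horizontal axis, group; vertical axis, scaled reads from 0), with the mean and SD of each group of 4. Gm8822 is lowest in mdx (37.5 ± 6.98) and highest in mdx/miR-133b-/- (447 ± 100.4), and 1 miR-133b-/- library lies far from the others of its group in Gm8822 and Gm8722.

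The comparison of miR-133b-/- with Control asks what loss of the microRNA does when dystrophin is present. None of the 39 genes passed by limma, nor did any of the 831 (0.0% called), and limma-voom on the recovered reads, an alternative chosen after the data were seen, also called 0. At an unadjusted p under 0.05 there were 3 of the 39, and 84 of the 831. All 3 were lincRNAs with the lower mean in miR-133b-/-. The first was A930003A15Rik, with 21.4, 44.2, 28.5 and 44.03 scaled reads in Control against 8.0, 23.6, 7.36 and 15.2 in miR-133b-/- (log2 fold change -1.37, SE 0.44, limma adjusted p = 0.335). It had 69.3, 87.5, 73.4 and 130.2 in mdx and 83.5, 84.2, 53.7 and 28.3 in the mdx/miR-133b-/- ones. The others were Gm28653, the host of Mir133b, given above (log2 fold change -1.04, SE 0.47, limma adjusted p = 0.432), and Gm3830, with 45.02, 24.6, 32.9 and 11.9 in Control, 5.0, 12.1, 15.4 and 21.8 in miR-133b-/-, 97.9, 153, 89.4 and 117 in mdx and 120.1, 30.5, 57.8 and 43.5 in mdx/miR-133b-/- (log2 fold change -1.03, SE 0.49, limma adjusted p = 0.472). Each of the 3 overlapped between miR-133b-/- and Control.

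The smallest p-values among genes with a higher mean in miR-133b-/- than in Control belonged to D830039M14Rik, Gm10704, Vdac3-ps1 and 5430431A17Rik, and none passed. D830039M14Rik stood at 0.61 (SE 0.29) and Vdac3-ps1 at 0.31 (SE 0.17). Gm10704, the copy of Rtraf, had 97.9, 87.8, 70.2 and 78.4 scaled reads in the Control libraries, 238, 64.96, 124 and 146 in miR-133b-/-, 79.2, 83.2, 82.8 and 64.5 in mdx and 70.2, 60.96, 70.5 and 46.1 in mdx/miR-133b-/- (log2 fold change 0.64, SE 0.31). 5430431A17Rik had 297, 300.1, 408 and 340.3 in Control, 706, 729, 306 and 301 in miR-133b-/-, 633, 1529.9, 836 and 813 in mdx and 1973, 1210.0, 928 and 938 in mdx/miR-133b-/- (log2 fold change 0.48, SE 0.32). In all 4 genes the miR-133b-/- and Control libraries overlapped. Gm8822 had the next smallest p among genes with a lower mean, at -0.70 (SE 0.52).

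Because miR-133b is the microRNA removed, its seed site was searched in the longest transcript of each of the 39 genes, as the letters GGACCAA, the reverse complement of the seed, on the transcribed strand. There were 8 matches in 8 genes, which is 0.0925 per 1000 bases. Over the 30929 GENCODE M21 genes with a transcript of these biotypes, each by its longest such transcript, there were 0.0754 per 1000 bases. The 39 were chosen by the biotype of the gene, not of the transcript, so these sets were not chosen alike. The genes were 5430431A17Rik, A330074K22Rik, Atcayos, Dnm3os, Gm17354, Gm31166, Gm32219 and Gm8822. In Gm17354 alone the match is followed by an A. Neither transcript of Gm28653 holds the letters (0 matches). The matches of Dnm3os and Gm8822, both higher in mdx/miR-133b-/- than in mdx as described next, and that of Gm17354 are shown with the seed match in capitals. Of the other genes with a match, 5430431A17Rik (0.41) and A330074K22Rik (0.27) had a positive log2 fold change in mdx/miR-133b-/- against mdx. Gm31166 (-0.79), Gm32219 (-0.46), Gm17354 (-0.22) and Atcayos (-0.125) had a negative one, and none of these others passed. A match describes the letters only.
Dnm3os, transcript bases 413 to 419: tgcaaactagGGACCAAgaagccctca
Gm8822, transcript bases 1898 to 1904: caagactgttGGACCAAtattgcaatt
Gm17354, transcript bases 2826 to 2832: ttaggtacatGGACCAAaccaaagaga

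Adding loss of miR-133b to the mdx mutation was compared directly, mdx/miR-133b-/- against mdx. The table holds only genes in which mdx/miR-133b-/- differs from miR-133b-/-, so the p-values here are not free of that selection. Of the 39 genes 4 passed: Gm8822, Gm16083 and Dnm3os were higher in mdx/miR-133b-/-, and Gm16062 was lower. That is 10.3%, beside 19.5% of all 831 genes (7.46% higher and 12.0% lower). The median log2 fold change was 0.01 over the 39 genes and -0.04 over all listed genes. Gm8822, the copy of Actr3, changed most, by 11.5-fold (log2 fold change 3.53, SE 0.52, limma adjusted p = 0.000236), from 31.5 to 45.5 scaled reads in mdx to 326 to 530 in mdx/miR-133b-/-, and it was called in every alternative run. Dnm3os, with its values given above, rose 1.87-fold (log2 fold change 0.90, SE 0.28, limma adjusted p = 0.0334).

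The other 2 are antisense RNAs. Gm16083, at chromosome 1, 130462576 to 130557075, plus strand, shares 102 exonic bases with Cd55 on the other strand, at the locus where Gm15675 lies. It had 39.3, 29.7, 37.3 and 29.9 scaled reads in the Control libraries, 24, 42.1, 36.8 and 27.5 in miR-133b-/-, 39.6, 61.2, 29.2 and 56.7 in mdx and 101, 99.4, 98.8 and 77.03 in the mdx/miR-133b-/- ones. The 4 mdx/miR-133b-/- libraries were above the other 12, a rise of 2.06-fold over mdx (log2 fold change 1.04, SE 0.31, limma adjusted p = 0.0298). Gm16062, at chromosome 11, 59810080 to 59818491, plus strand, shares 279 exonic bases with Cops3, a subunit of the COP9 signalosome. It had 157, 98.5, 95.1 and 156 scaled reads in the Control libraries, 188, 138, 135 and 157 in miR-133b-/-, 110.0, 155, 194 and 106 in mdx and 68.8, 76.9, 97.03 and 64.5 in the mdx/miR-133b-/- ones. It fell 1.79-fold (log2 fold change -0.84, SE 0.25, limma adjusted p = 0.0298), and Cops3 itself stood at -0.58 (SE 0.26) and did not pass, at 1186 ± 90.2 in mdx and 798 ± 111 in the mdx/miR-133b-/- libraries.

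The 3 calls other than Gm8822 depended on the setting. With the GC and length trend removed, Dnm3os stood at 0.23, Gm16083 at 0.65 and Gm16062 at -0.56, and none passed, which left 1 of the 39. Dnm3os did not pass without mdx 1 (0.85), mdx 3 (0.84), mdx 4 (0.97) or any 1 of the mdx/miR-133b-/- libraries (0.81 to 1.01). Gm16083 did not pass without mdx 1 (0.99), mdx 3 (0.84) or mdx/miR-133b-/- 2 (1.01), 3 (1.02) or 4 (1.14), and Gm16062 without mdx 2 (-0.78), mdx 3 (-0.68) or mdx/miR-133b-/- 4 (-0.77). The count of 4 became 1 without mdx 3 or mdx/miR-133b-/- 4, 2 without mdx 1, mdx/miR-133b-/- 2 or mdx/miR-133b-/- 3, and 6 without mdx/miR-133b-/- 1, where 3110039I08Rik, Gm31166 and Gm3830 were added.

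Next by p among the genes that did not pass was, on the higher side, Hectd2os, antisense to the ubiquitin ligase gene Hectd2 with 1834 shared exonic bases. It had 268, 277, 301 and 488 scaled reads in the Control libraries, 409, 418, 148 and 213.68 in miR-133b-/-, 255, 490.0, 368 and 499.5 in mdx and 683, 516, 714 and 728 in the mdx/miR-133b-/- ones. The mdx/miR-133b-/- libraries were above those of mdx without overlap (log2 fold change 0.75, SE 0.31, limma adjusted p = 0.0973). On the lower side stood Gm31166 (-0.79, SE 0.29), Mylf-ps and Gm6206. Mylf-ps had 2913, 2305, 2113 and 2537 scaled reads in the Control libraries, 5134, 1065, 1865 and 3683 in miR-133b-/-, 2132, 1987, 2660.5 and 2093 in mdx and 1520.0, 1323, 949 and 1094 in mdx/miR-133b-/- (log2 fold change -0.87, SE 0.33, limma adjusted p = 0.0686). Gm6206, the copy of the ubiquitin ligase gene Cop1, had 98.6, 102, 87.8 and 85.8 in Control, 151, 58.5, 79.5 and 71.1 in miR-133b-/-, 69.8, 67.9, 78.9 and 76.3 in mdx and 47.7, 47.7, 45.05 and 36.2 in mdx/miR-133b-/- (log2 fold change -0.72, SE 0.27, limma adjusted p = 0.0705). In both pseudogenes all mdx/miR-133b-/- libraries lay below all mdx libraries. Hectd2os, Mylf-ps and Gm6206 passed when the fit used only the libraries of the 2 groups, which gave 7 calls.

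**Figure D4:**
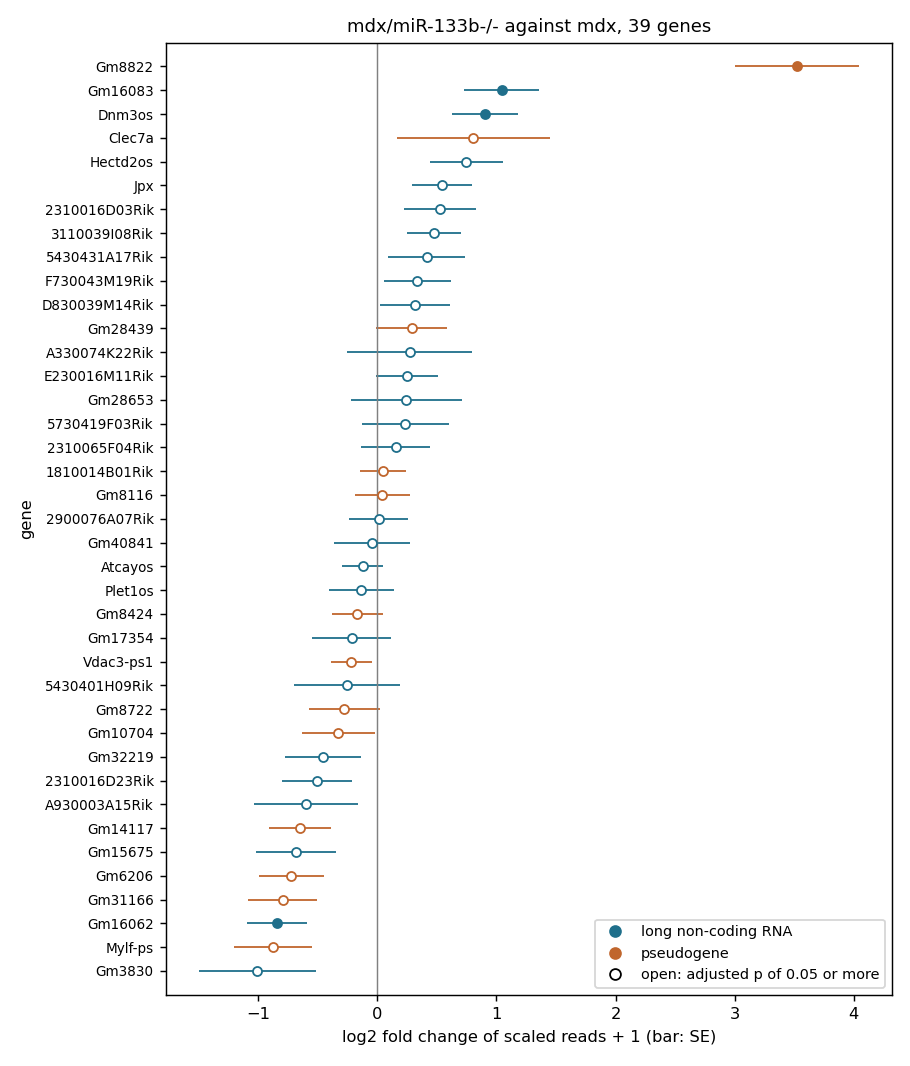
log2 fold change of scaled reads + 1, mdx/miR-133b-/- against mdx, for the 39 genes (points; bars, SE; filled points passed the test; colour, class). Gm8822, at 3.53, stands apart from the other 38 genes, which lie between -1.01 and 1.04.

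Whether loss of miR-133b had a different effect in mdx muscle than in muscle with dystrophin was tested as an interaction, the difference of mdx/miR-133b-/- from mdx minus that of miR-133b-/- from Control. The same value is the difference of mdx/miR-133b-/- from miR-133b-/- minus that of mdx from Control. It thus contains the difference by which the table was selected, and its p-values are not free of that selection. Gm8822 was the 1 gene of the 39 that passed (log2 fold change 4.23, SE 0.74, limma adjusted p = 0.00225), beside 0.963% of all listed genes, 8 of 831, of which it was the only one with a positive value. Its value was 3.38 without miR-133b-/- 1, the library at 15 scaled reads, and 3.38 to 4.62 with any 1 library of the 16 left out. At an unadjusted p under 0.05 there were 8 of the 39, beside 172 of the 831. Without miR-133b-/- 2 the count became 6 of 39 and 110 of 831, adding Dnm3os, Gm10704, Gm14117, Gm16062 and Mylf-ps.

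The next smallest p-values of the interaction did not pass. On the lower side were Gm16062 (log2 fold change -1.16, SE 0.36, limma adjusted p = 0.148), Gm14117, Gm10704 (-0.97, SE 0.43) and Vdac3-ps1 (-0.53, SE 0.24). Gm14117, the copy of the ATP synthase assembly factor gene Atpaf1, had 131, 102, 117 and 119 scaled reads in the Control libraries, 225, 96.4, 179.5 and 112 in miR-133b-/-, 109, 114, 105 and 143 in mdx and 77.5, 68.9, 96.5 and 58.6 in mdx/miR-133b-/- (log2 fold change -0.95, SE 0.37, limma adjusted p = 0.188). Its mean was higher than Control in miR-133b-/- and lower than mdx in mdx/miR-133b-/-. On the higher side were Gm16083 (log2 fold change 1.13, SE 0.44, limma adjusted p = 0.188), Hectd2os (1.0002, SE 0.43) and 3110039I08Rik. 3110039I08Rik, the Mir100 host, had 610.3, 662.05, 516 and 502 in Control, 479, 581, 417 and 499 in miR-133b-/-, 721, 747, 585 and 702 in mdx and 663, 880.0, 857 and 1666 in mdx/miR-133b-/- (log2 fold change 0.69, SE 0.32, limma adjusted p = 0.223), with 1 mdx/miR-133b-/- library far above the other 3. The median over the 39 genes was -0.07, with 0.22 in the long non-coding RNAs and -0.53 in the pseudogenes, beside 0.02 over all listed genes.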

How the data were processed

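RNA of whole tibialis anterior was isolated with the Aurum kit (Bio-Rad) and DNase treated, per the labels' protocols. The submitters' processing notes name HISAT2, HTSeq and the build GRCm38, and versions, settings and strand use are not given in the sources. The deposited table holds 1 signal value per gene and library: read counts that the authors multiplied by 1 factor per library, as the values show, since dividing by the factor gave whole reads to within 0.001 read in 100% of them. The lowest mean over the 16 libraries is 50.1. GENCODE M21 held all 831 identifiers and gave biotypes and coordinates, and miRNA sequences are from RefSeq. 1 gene that has a listed biotype is not reported here.

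Log2(value + 1) was fitted with limma 3.58.1 (R 4.3.3), with 1 mean per group over 16 libraries, a variance trend, and p-values were adjusted by Benjamini-Hochberg over 831 genes at 0.05, with no filter. On this scale low genes appear to change less than they do. The 3 group comparisons and the interaction were taken from this fit. The difference by which the table was selected got no test of its own, but the interaction contains it. Pseudogenes were aligned with BLAST 2.17.0. The procedure was tested on simulated data with the same spread in each group and with changes added to mdx only. The unequal spread of the groups and the selection of the table were not simulated. The genes, lists and tests were chosen with earlier results of these data known. By the naming rule every gene is named, each that passed is given with its log2 fold change and SE, and the 4 smallest p-values in each direction of a comparison with all library values. Alternatives covered scaling factors, pseudocounts of 0.5 and 10, the variance trend, a minimum mean of 100, the libraries fitted, the replicate block, the GC and length trend, each library left out, and limma-voom. The main effects of these are given with the results and in the closing section.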

Additional observations from a re-analysis of the deposited data

Results flagged for a closer look

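In a group of 4 libraries, a value was picked out when its gap to the nearest of the other 3 as a share of the whole range was above Dixon's 95% critical value for 4 values. Of 156 groups (39 genes in 4 groups) 8 met this, where chance gives about 1 in 20, or 7.8. In Control, Hectd2os stood at 488 scaled reads in library 4 against 268 to 301 in the others, and 5430401H09Rik at 47.9 in library 1 against 37.3 to 38.5. In miR-133b-/-, Gm8722 stood at 6052 in library 1 against 1533 to 2048, and Clec7a at 19.4 in library 4 against 7.36 to 9.0. In mdx/miR-133b-/-, library 2 held 2268 scaled reads of Atcayos against 1579 to 1653 and 1311 of Gm8722 against 944 to 1005. Library 3 of that group held 354 of 2310065F04Rik against 232 to 242, and library 4 held 77.0 of Gm16083 against 98.8 to 101.

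Gm8822 was picked out because the difference between groups without and with miR-133b was not the same in mdx muscle and in muscle with dystrophin. The interaction was 4.23 on the log2 scale (SE 0.74, limma adjusted p = 0.00225), a test that contains the difference by which the table was selected. The 4 mdx/miR-133b-/- libraries (326 to 530 scaled reads) lay above the 4 of mdx (31.5 to 45.5), and miR-133b-/- (15 to 207) overlapped Control (138 to 166). The cause was not tested.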

How the results depend on the processing

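Of 32 calls followed over all alternatives, 32 kept their direction and 23 were called in each setting in which they were tested (8 of the 23 were not tested at a minimum mean of 100); 9 were lost in at least 1, namely 6 of 27 in mdx against Control and 3 of 4 in mdx/miR-133b-/- against mdx. In mdx against Control the 27 called genes became 15 with a minimum mean of 100, where 23 were tested, and 25 to 28 with 1 library left out. With only the libraries of the 2 groups they became 29, and the 550 listed genes became 646. In mdx/miR-133b-/- against mdx the 4 became 7 with only the libraries of the 2 groups, 1 with the GC and length trend removed, and 1 to 6 with 1 library left out; the 162 listed genes became 55 with that trend removed and 49 to 197 with 1 library left out. In the interaction the 1 gene became 1 to 6 with 1 library left out, and the 8 listed genes became 14 with relative log expression factors, 4 with a minimum mean of 100, 5 with the trend removed and 7 to 110 with 1 library left out. The cause of these moves was not tested, except that a minimum mean leaves fewer genes to test. limma-voom on the recovered reads, added after the data were seen, called 27, 0, 4 and 1 of the 39 genes in the 4 comparisons. 2 alternatives fixed at the outset, edgeR's quasi-likelihood test on the recovered reads with the authors' factors and with TMM factors, were not run.

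Samples of different groups share a number in their titles, but the numbers did not pair them: deviations from the group means correlated between -0.28 and 0.25 over 24 same-numbered pairs, with 2 over 0.1, and 6 of 48 comparisons were best with the own number. With the number as a replicate block the called genes of the 39 were 26 in mdx against Control, 0 in miR-133b-/- against Control, 2 in mdx/miR-133b-/- against mdx and 1 in the interaction, and the listed genes 541, 0, 120 and 7. The calls lost with it were E230016M11Rik in mdx against Control (limma adjusted p = 0.0554) and Gm16062 and Gm16083 in mdx/miR-133b-/- against mdx (limma adjusted p = 0.0502 each). The values are sums of reads in whole muscle, and the full depth and the treatment of reads with several matches are unknown, which limits what can be said of near-identical copies.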
